A study of Mus musculus with 2 samples.

Results

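The cytoplasmic ribosomal protein genes were chosen by symbol, not by their values: every gene whose symbol starts with Rpl or Rps and a digit (kinases of the Rps6k family left out), plus Rpsa, Rplp0, Rplp1 and Rplp2, with symbols containing -ps left out. The rule took 87 of the 27998 genes in the matrices. Of these, 77 encode core subunit proteins (31 of the small and 46 of the large subunit), 9 are paralogues or retro copies such as Rpl39l, and 1, Rps19bp1, encodes a binding partner of a ribosomal protein and carries a matching symbol only. The rule left out 16 genes with -ps in the symbol. All 87 had UMIs (unique molecular identifiers, each counting 1 captured transcript) in both libraries.

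The study measured single-cell transcriptomes of mouse embryonic stem cells of the established line AB2.2 after 4 days of differentiation toward mesendoderm, the shared precursor of mesoderm and endoderm. It compared wild type (WT) cells with PHD2 knockout (PHD2-KO) cells. PHD2, encoded by Egln1, is the oxygen-sensing prolyl hydroxylase that marks HIF proteins for destruction. Each group was 1 library, so culture, clone and library cannot be told apart from genotype, no test was possible, and every interval below covers counting error only. The sources used here do not say which part of Egln1 was altered, how many clones were used or which transcript end was read.

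Each ribosome carries 1 copy of most ribosomal proteins, and cells tie the output of these genes to growth through mTORC1 signalling. Many of the mRNAs start with a cytosine followed by a run of pyrimidines, the terminal oligopyrimidine (TOP) element, through which mTORC1 and the RNA-binding protein LARP1 set their translation. Some members have duplicated copies with restricted expression: Rpl39l and Rpl10l are known from male germ cells, and Rpl22l1 can stand in for Rpl22.

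Rpl39l differed most between groups of cells below, so its coding sequence is shown beside that of its parent Rpl39, an X-linked gene whose product lines the exit tunnel of the large subunit. Both coding sequences, from GENCODE M21 transcripts, are 156 bases long and identical at 85.3% of positions. Capitals mark the 23 bases that differ, and the longest identical stretch is 38 bases.
Rpl39: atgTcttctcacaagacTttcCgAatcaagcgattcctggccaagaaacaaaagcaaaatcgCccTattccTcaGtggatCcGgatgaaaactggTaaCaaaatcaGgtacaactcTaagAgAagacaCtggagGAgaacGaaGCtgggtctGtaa
Rpl39l: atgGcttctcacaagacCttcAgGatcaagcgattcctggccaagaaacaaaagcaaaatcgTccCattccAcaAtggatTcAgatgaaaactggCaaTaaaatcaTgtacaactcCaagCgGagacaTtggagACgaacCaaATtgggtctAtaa
Rps27rt has the same coding sequence as Rps27 over all 255 bases, so reads from inside it cannot be assigned to 1 of them with certainty, and levels of Rps27rt are uncertain. Identity was 87.9% for Rpl36a and Rpl36al, 84.8% for Rpl10 and Rpl10l, 76.1% for Rps27 and Rps27l, 74.4% for Rpl3 and Rpl3l, 70.2% for Rpl22 and Rpl22l1 and 59.9% for Rpl7 and Rpl7l1.

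Some features of annotated start sites, not used by the rule, were more frequent among members than among all genes. Each feature given here was absent from most member windows. Windows around RefSeq starts (GRCm38.p6) were found for 66 of the 87 members (78 windows). A first base C followed by 4 or more pyrimidines was present in 17.9% of them against 2.51% of 32851 windows of all genes. A run of 8 or more pyrimidines over the first base was present in 21.8% against 3.86%. The windows below show a run of 11 or more over the first base in 5 members and a run of 5 that ends on it in Rpl39. Rpl39l has none over that base, but a pyrimidine run ends just before it and is not marked. Each holds 12 bases before the start and 18 from it, 5′ to 3′, and capitals mark the pyrimidine run over the first base.
Rpl14 (chr9:120571505-120571534, plus strand): cgggCCCTCTCTCTTCTCgctgagcgccgc
Rpl15 (chr14:18270969-18270998, minus strand): ggagaaagCCTTCTTCCTTTCCTCTggcgg
Rpl35 (chr2:39005114-39005143, minus strand): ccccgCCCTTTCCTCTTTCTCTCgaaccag
Rpl28 (chr7:4792953-4792982, plus strand): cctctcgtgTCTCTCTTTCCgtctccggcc
Rps18 (chr17:33955648-33955677, minus strand): gtcacttccgCTCTCTCTTCCacaggaggc
Rpl39 (chrX:37085205-37085234, minus strand): aagctccgCCTCTagcgacttcttctaatc
Rpl39l (chr16:10170216-10170245, plus strand): ccaggcctttccggatttccggtggtcgcc
The word CTTTCC, on the plus strand within 20 bases of the start, was in 15.4% of member windows and 1.95% of all windows. In the surrounding 300 bases, on either strand, ACTTCCG was in 30.8% against 6.42%, AAGATGGCG in 7.69% against 1.40%, CACGTG in 10.3% against 7.15% and ACGTG, a form of the core of hypoxia response elements that also lies within CACGTG, in 32.1% against 19.6%. TATAA was in 23.1% against 24.9% and CCAAT in 29.5% against 37.4%. These are annotated starts, since none was measured here, and a word match is not a bound site.

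The WT matrix held 9651 barcodes and 226179474 UMIs and the knockout matrix 7713 barcodes and 173470962 UMIs. After limits on genes and mitochondrial share and removal of likely doublets, 8514 and 6927 cells remained, with medians of 20443.5 and 20999 UMIs, and 22 barcode sequences occurred in both libraries. Egln1 was at 18.2 CPM (UMIs summed over cells per 1000000 UMIs) in WT cells, with a 95% interval of 17.6 to 18.8 CPM. In knockout cells it was at 13.7 CPM (13.1 to 14.3), which does not check the labels, since transcripts of an altered gene can still be counted. Among knockout cells with a low share of chromosome 8 UMIs (3058 of 6927 cells, defined below) Egln1 was at 17.6 CPM (16.65 to 18.60), an interval that overlaps that of WT cells, and among the others at 10.3 CPM (9.67 to 11.05). Whether all cells of the library labelled PHD2-KO carry the same change of Egln1 was not tested, so knockout values below are those of cells of that library. T, the Brachyury gene of the primitive streak, was at 5.81 CPM in WT and 318 CPM in knockout cells, so 7232 of the 7741 WT cells with at least 14000 UMIs had no T UMI when thinned to 14000, against 1133 of 6283 knockout cells. Markers of feeder fibroblasts were near 0: all 6 were at 1.88 CPM or less in both libraries.

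Ribosomal protein transcripts made up 37.0% of all UMIs in WT cells (interval 37.02 to 37.04) and 36.3% in knockout cells (36.31 to 36.32). Among the 77 core genes the level ran from 177 CPM (Rpl29) to 12433 CPM (Rpl13) in WT and from 162 CPM (Rpl29) to 11822 CPM (Rps20) in knockout cells, with medians of 4580 and 4510 CPM. These levels are per molecule counted and were not divided by transcript length. In each library 75 of the 77 were above 1000 CPM, and the 10 highest gave 23.99% and 23.89% of the members' UMIs. The exceptions were Rpl29, which still had a UMI in 95.5% of WT cells, and Rpl23a at 662 and 732 CPM.

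The most abundant members came from both subunits. In WT and knockout cells, Rpl13 was at 12433 and 11341 CPM, Rps20 at 10660 and 11822 CPM, and Rps27a, made as a fusion with ubiquitin, at 9694 and 9778 CPM. Rps18, next to the decoding site, was at 8408 and 8347 CPM and Rpsa, also known as the laminin receptor, at 8159 and 8141 CPM. Rpl41, which encodes a very short peptide, was at 8093 and 7447 CPM. Rpl19 was at 7592 and 7405 CPM and Rpl23 at 7128 and 7316 CPM. The paralogues covered the whole range. Rps27l (2672 and 2436 CPM), Rpl36al (1758 and 1456 CPM) and Rpl22l1 (1523 and 1436 CPM) reached the level of core genes, while Rpl7l1 (137 and 147 CPM), Rps27rt (49.9 and 46.9 CPM), Rpl6l (9.62 and 9.37 CPM), Rpl39l (6.52 and 5.53 CPM) and Rpl10l (4.90 and 4.71 CPM) stayed low. Rpl3l, known from striated muscle, rested on 69 and 41 UMIs (0.342 and 0.260 CPM).

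**Figure D1:**
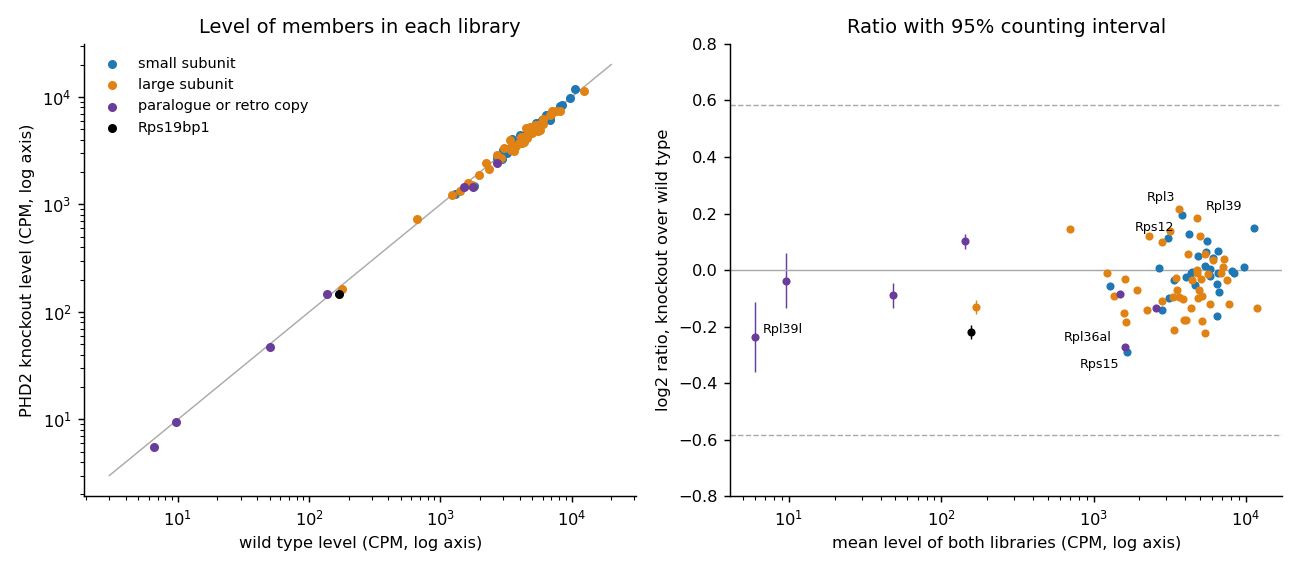
Level of ribosomal protein genes in knockout against WT cells (left, CPM, log axes, line of equality) and its log2 ratio without pseudocount against its mean level (right, bars are 95% counting intervals, dashed lines mark 1.5-fold). Members below 5 CPM in both libraries and a few that are not reported are not drawn; every member drawn lies inside the 1.5-fold lines, with Rpl3 highest and Rps15 lowest.

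From cell to cell, the core genes varied less than other abundant genes, which were not matched to them by level. The part of level in this difference was not tested. In cells thinned to 14000 UMIs, the coefficient of variation left after Poisson noise had a median of 11.4% in WT and 12.5% in knockout cells over the 77 core genes, against 17.9% over 197 and 21.3% over 186 other genes with a mean of at least 7 UMIs per cell. Rpl39 varied most in both libraries, at 24.5% and 35.9%. Core genes tended to vary together, to differing degrees. The correlation of a core gene with the sum of the other members across cells had a median of 0.425 in WT and 0.404 in knockout cells. It was highest for Rps18 (0.628 and 0.653) and lowest for Rps29 in WT (0.054) and Rpl23a in knockout cells (0.031). Cells of a library share its depth and chemistry, so these correlations are descriptions, and none is given for other abundant genes.

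The share of a cell's UMIs that came from members had a median of 37.2% in WT (5th to 95th percentile 32.1 to 41.8%) and 36.6% in knockout cells (31.7 to 41.6%). It moved with depth. From the shallowest to the deepest quintile of cells the median went from 38.0 to 36.8% in WT and from 38.2 to 35.3% in knockout cells. From the lowest to the highest quintile of mitochondrial share it went from 38.2 to 36.3% and from 37.5 to 36.1%. Among knockout cells cut into 3 equal classes of depth, the medians of T-zero and T-high cells (defined below) were 37.6 and 37.3%, 36.5 and 36.1%, and 35.5 and 35.4%. The part of depth in the other group differences was not tested, except where cells were thinned to 1 depth.

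**Figure D2:**
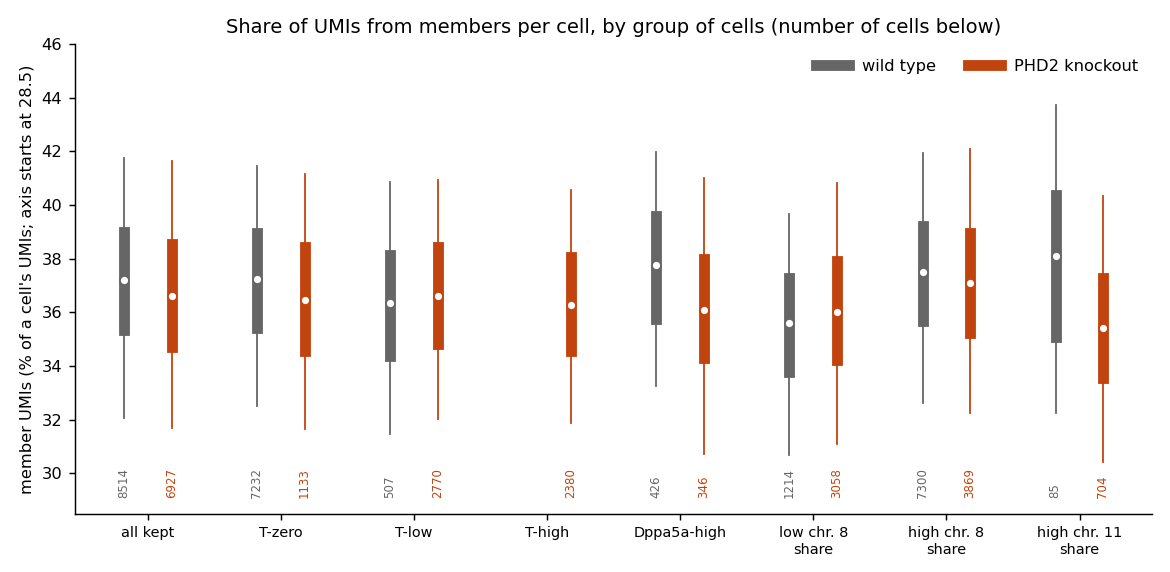
Share of each cell's UMIs that come from ribosomal protein genes (axis not from 0), by library and group of cells, with the number of cells below. White dots are medians, thick bars span the 25th to 75th and thin lines the 5th to 95th percentile. Medians of the groups drawn lie between 35.4 and 38.1%, and the bars of all groups overlap.

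The first comparison asked how the members differed between knockout and WT cells. As a group they were 0.715 percentage points lower in the knockout, a ratio of 0.981 (0.980 to 0.981). Of the 85 members that reached 5 CPM in at least 1 library, 0 differed by 1.5-fold, where 11.7% of all 8537 such genes were higher by that size and 2.35% lower. Among 207 other genes at 500 CPM or more, which match the members' level better, 2.90% were higher and 1.93% lower. At 1.2-fold, 0 members were higher (38.6% of all genes, 9.66% of the abundant ones) and 2 were lower (9.37% and 27.1%). The median log2 ratio of the members was −0.03 (25th to 75th percentile −0.11 to 0.01), with 27 above and 58 below zero, while that of all genes was 0.16 and that of the other abundant genes −0.11. Size factors from the median of ratios moved all ratios down by 0.17 and left 3 members above and 82 below zero.

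Differences within the group were small but larger than counting error for most genes. Of the 77 core genes, the interval of the ratio lay above 1 for 24, below 1 for 50 and included 1 for 3. Among the lowest were Rps15, at 1814 CPM in WT and 1483 CPM in knockout cells (ratio 0.818, 0.813 to 0.822), Rpl36al at 1758 and 1456 CPM (0.828), Rpl36 at 5760 and 4938 CPM (0.857) and Rps19bp1 at 170 and 146 CPM (0.859). The highest were Rpl3, whose product helps shape the peptidyl transferase centre, at 3382 and 3932 CPM (ratio 1.163, 1.159 to 1.167), Rps12 at 3523 and 4035 CPM (1.145), Rpl39 at 4473 and 5088 CPM (1.137, but below 1 within each class of proximal X share, log2 −0.11 and −0.10, described below), Rps20 at 10660 and 11822 CPM (1.109) and Rpl23a at 662 and 732 CPM (1.105). With size factors Rpl3, Rps12 and Rpl39 came to log2 ratios of 0.05, 0.02 and 0.01.

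By role, the small subunit genes had a median log2 ratio of −0.01 (13 of 31 above zero) and the large subunit genes one of −0.07 (13 of 46 above zero). The stalk, which recruits elongation factors, was mixed: Rplp0 was at 5685 and 5632 CPM, Rplp1 at 4793 and 5209 CPM and Rplp2 at 3995 and 3722 CPM. Both genes of the 5S particle, which can also bind the p53 regulator MDM2, were lower: Rpl5 at 1413 and 1326 CPM and Rpl11 at 5504 and 4862 CPM. The 8 genes of the peptide exit tunnel had a median of −0.03, from Rpl35 at 3610 and 3119 CPM to Rpl39. Of 9 genes mutated in Diamond-Blackfan anaemia, a failure of red cell production, 1 was above zero (Rps7 at 4766 and 4928 CPM) and the median was −0.05, with Rps19 at 6868 and 6512 CPM. Of the 4 X-linked core genes all were above zero: besides Rpl39, Rpl10 was at 2717 and 2910 CPM, Rps4x at 5314 and 5711 CPM and Rpl36a at 2213 and 2407 CPM. Their median log2 ratio was 0.11, against 0.29 for 298 other genes of X. For the 8 other X-linked genes at 500 CPM or more the median was −0.01. With size factors, Rpl39 was the 1 of these 4 still above zero.

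Some members also differed between cells of the same library, split by the share of UMIs from the member's chromosome. In both libraries some cells had a low share of UMIs from other genes of chromosome 8 (under 6.5%, a limit set after the distribution was seen, with 308 WT and 287 knockout cells within 0.25 points of it): 1214 WT cells (14.3%) and 3058 knockout cells (44.2%). Rpl13, a core gene of that chromosome, differed with the split. Rpl13 (mm10 chromosome 8, 123102350 to 123105244) was at 9072 CPM in low-share and 12982 CPM in high-share WT cells (1.43-fold), and at 9336 and 13039 CPM in knockout cells (1.40-fold). Other genes of chromosome 8, by which the cells were split, had median log2 ratios of 0.38 and 0.41. Core genes on other chromosomes lay between −0.07 and 0.14 in WT cells, and in knockout cells between −0.11 and 0.14 except Rpl39 at 0.61. Past 1.5-fold in these splits were Rpl10l in WT cells, where 1.09% of 8104 genes were higher by that size and 2.59% lower, and Rpl10l, Rpl39l and Rpl39 in knockout cells, where 2.50% of 8639 were higher and 2.58% lower. Rpl10l and Rpl39l reached the 5 CPM needed to be counted in the high-share cells alone, where they are high, so their calls rest on that limit. Rpl10l was at 3.15 and 5.19 CPM in WT and at 3.31 and 5.89 CPM in knockout cells, and Rpl39l at 4.25 and 6.62 CPM in knockout cells. With the pseudocount, Rpl10l in WT (0.58) and Rpl39l in knockout cells (0.54) fell short of 1.5-fold. Egln1 itself lies on chromosome 8 and, beside the knockout values above, was at 16.4 and 18.5 CPM in low-share and high-share WT cells. When knockout and WT cells were compared within the low share, Rpl13 was at a log2 ratio of 0.07, and within the high share at 0.02, against −0.13 over all cells.

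A high share of chromosome 11 (13% or more) marked 704 knockout cells (10.2%) and 85 WT cells. In these knockout cells all 7 core genes of chromosome 11 were higher, by log2 ratios from 0.37 to 0.53. Rpl26 was at 4789 CPM in other knockout cells and 6901 CPM in these cells (1.44-fold), Rpl38 at 3077 and 4348 CPM and Rpl19 at 7070 and 9934 CPM, and Rpl27, Rps27a, Rpl23 and Rpl23a followed. No member passed 1.5-fold here, where 5.07% of 8711 genes were higher and 2.18% lower. The member share was 1.18 percentage points lower in these cells, with 11 members above and 74 below zero. At 1.2-fold these 7 were higher (17.2% of genes were) and 6 members were lower (9.44% were), among them Rpl39 at 5275 and 3667 CPM and Rpl13 at 11579 and 9545 CPM. Other genes of chromosome 11 had a median of 0.51. A low chromosome 8 share was held by 66.6% of these cells and 41.6% of other knockout cells. A high proximal X share, described below, was held by 1.42% and 36.9%. The part of these overlaps in the values of Rpl13 and Rpl39 was not tested. Copy number was not measured, and its part in these values was not tested.

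**Figure D3:**
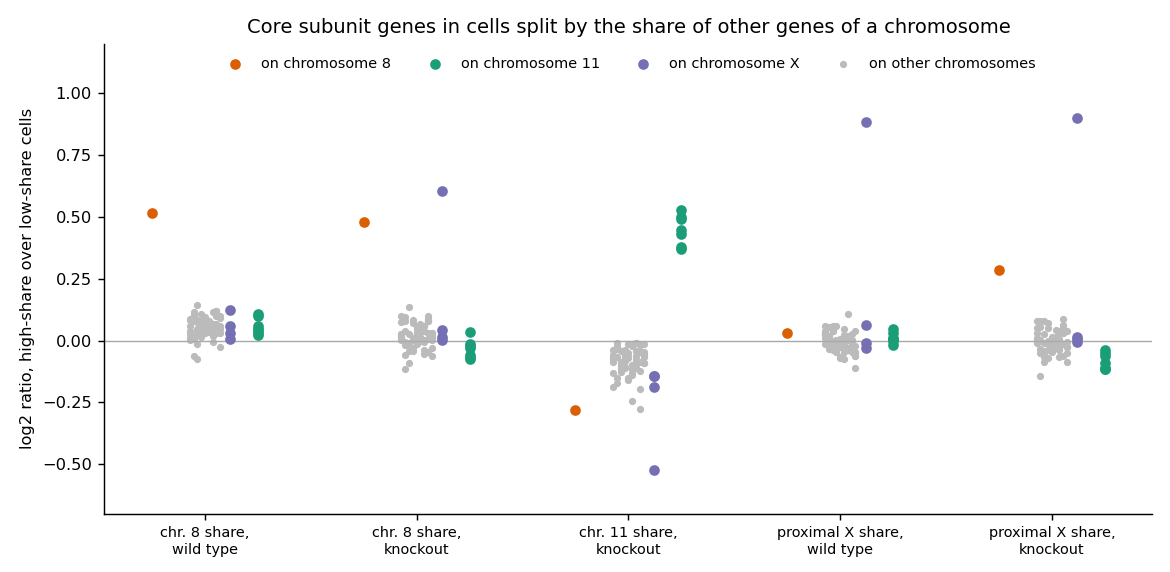
Log2 ratio of the core genes drawn between cells with a high and a low share of UMIs from other genes of chromosome 8, chromosome 11 or the first 50 Mb of X, coloured by the member's chromosome. Rpl13 stands apart in the chromosome 8 splits, the 7 genes of chromosome 11 in the chromosome 11 split, and Rpl39 in the proximal X splits. In knockout cells Rpl39 also stands apart in the other splits, and Rpl13 in the proximal X split (0.29).

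Rpl39 (chromosome X, 37082520 to 37085402, minus strand) had a per-cell distribution with 2 peaks. In cells thinned to 14000 UMIs, 643 WT cells (8.31%) and 2045 knockout cells (32.5%) held 80 or more Rpl39 UMIs, a limit set after the distribution was seen that left 312 and 218 cells within 4 UMIs of it. The medians on its sides were 58 and 106 UMIs in WT cells and 54 and 106 UMIs in knockout cells. Other X-linked genes in the first 50 Mb were higher in the Rpl39-rich cells: 44 of 44 in WT (median log2 ratio 0.57) and 53 of 54 in knockout cells (0.79). Genes on the rest of X had medians of −0.03 in both libraries, with 38 of 90 and 49 of 106 above zero, and autosomal genes −0.06 and −0.05. The other X-linked members start at 74.3 Mb (Rpl10), 102 Mb (Rps4x) and 135 Mb (Rpl36a), beyond that stretch.

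Cells were also split without Rpl39, by the share of UMIs from other genes in the first 50 Mb of X, the proximal X share. The limit was 1.1% or more, with 121 WT and 183 knockout cells within 0.05 points of it. That stretch is where other genes were higher in the Rpl39-rich cells above. This split of the same cells therefore gives no independent support. Rpl39 was at 4293 CPM in low-share and 7936 CPM in high-share WT cells (1.85-fold), and at 3976 and 7427 CPM in knockout cells (1.87-fold). It was the only core member past 1.5-fold, where 2.63% of 8051 and 1.91% of 8586 genes were higher and 0.956% and 1.92% lower. The paralogue Rpl10l was at 4.77 and 7.51 CPM in WT and 4.03 and 6.13 CPM in knockout cells. It reached 5 CPM in the high-share cells alone, and passed 1.5-fold without the pseudocount but not with it (log2 0.56 and 0.50). Between the libraries, Rpl39 was lower in the knockout within each class: 4293 against 3976 CPM in low-share cells (log2 ratio −0.11) and 7936 against 7427 CPM in high-share cells (−0.10), against 0.19 over all cells. The direction of the pooled ratio turned within these classes, the high one of which held 465 of 8514 WT and 2304 of 6927 knockout cells. Of the knockout cells with a high proximal X share, 4.51% had a low chromosome 8 share, against 63.9% of those with a low one, so the 2 splits overlap in that library. Cells with a high proximal X share were 34.8% of T-zero, 33.9% of T-low and 30.9% of T-high knockout cells.

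**Figure D4:**
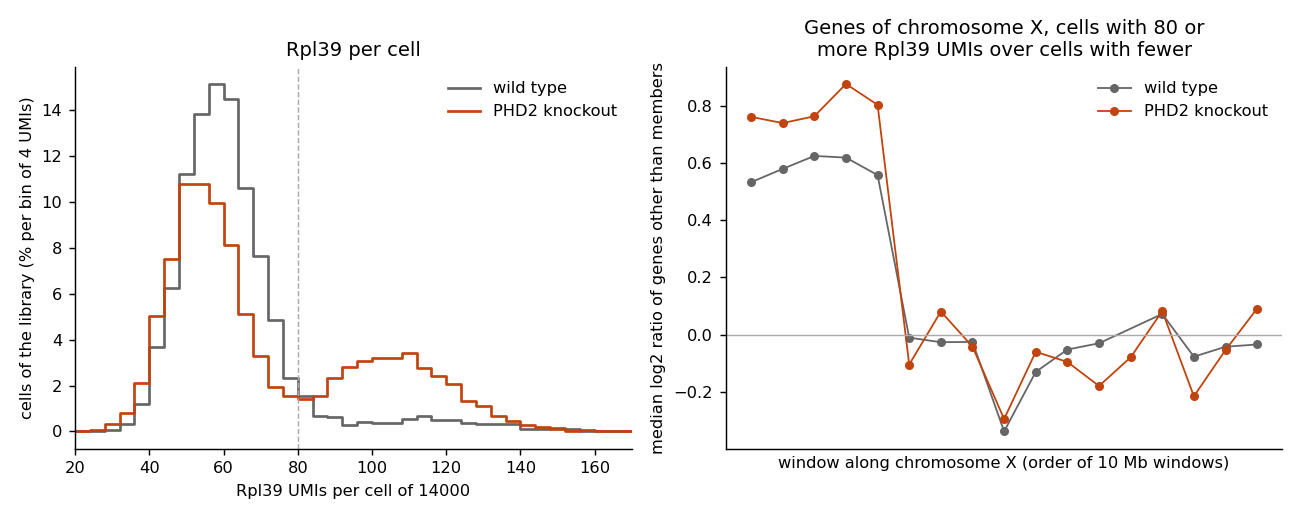
Left, Rpl39 UMIs per cell after thinning to 14000 UMIs (x axis) against the percent of the library's cells in bins of 4 UMIs; the dashed line is at 80. Right, median log2 ratio of other X-linked genes between cells with 80 or more Rpl39 UMIs and cells with fewer, in windows of 10 Mb in chromosome order; the 5 windows that make up the first 50 Mb lie between 0.53 and 0.88, and the windows after them between −0.34 and 0.09.

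The second comparison asked how the members differed with T state among knockout cells thinned to 14000 UMIs. T-zero cells had 0 T UMIs (1133 cells), T-low cells 1 to 4 (2770 cells) and T-high cells 5 or more (2380 cells); 518 cells had 4 and 385 had 5. The member share was 36.5%, 36.6% and 36.3%. Between T-high and T-zero cells the median log2 ratio was −0.01 (32 members above and 54 below zero, 22 and 64 with size factors), against 0.02 for all genes, and no core gene differed by 1.2-fold. High ratios were those of Rpl7l1 at 141 CPM in T-zero and 155 CPM in T-high cells, Rpl36a at 2338 and 2480 CPM, Rps20 at 11466 and 12158 CPM and Rpl3 at 3857 and 4082 CPM. The lowest core genes were Rpl8 at 7070 and 6647 CPM and Rps6, a substrate of the S6 kinases, at 2803 and 2646 CPM. Rpl6l was at 10.2 and 9.39 CPM.

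The paralogues Rpl39l and Rpl10l stood outside this range. Of the members measured, 0 were higher by 1.5-fold (3.57% of 8684 genes were) and these 2 were lower (3.55% were). Both reached 5 CPM in T-zero cells alone, where they are high, so the count gives no support beyond their values. Rpl39l was at 12.9 CPM in T-zero, 4.95 CPM in T-low and 2.25 CPM in T-high cells, 5.74-fold lower from T-zero to T-high (4.39 to 7.58; 205 and 75 UMIs). Rpl10l was at 6.68 CPM in T-zero and 3.90 CPM in T-high cells, 1.71-fold lower (1.31 to 2.23; 106 and 130 UMIs). Their parents were nearly level, Rpl39 at 5079 and 5094 CPM and Rpl10 at 2979 and 2908 CPM. From T-zero to T-low, Rpl39l, again at 5 CPM or more in T-zero cells alone, was the only member past 1.5-fold (1.43% of 8541 genes were lower and 0.656% higher). Dppa5a-high cells, described next, made up 13.9% of T-zero, 5.31% of T-low and 0.882% of T-high cells. Without them Rpl39l was at 6.44 and 2.24 CPM (2.87-fold lower, 2.09 to 3.97) and Rpl10l at 5.20 and 3.85 CPM (1.35-fold, 0.996 to 1.82, no longer past 1.5-fold). Within low-share chromosome 8 cells, without those of a high chromosome 11 share, Rpl10l was at 3.20 and 3.47 CPM. Rpl39l was 3.80-fold lower there. In WT cells, of which 7232 were T-zero, 507 T-low and 2 T-high, Rpl39l was at 6.43 CPM in T-zero and 3.52 CPM in T-low cells (1.83-fold lower, 1.23 to 2.84), the only member past 1.5-fold and above 5 CPM in T-zero cells alone, where 0.398% of 8048 genes were lower and 1.14% higher. The member share there was 37.2% and 36.2%.

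The third comparison asked how the members differed in cells rich in Dppa5a, a gene of naive pluripotent cells. Dppa5a-high cells were the 5% with the highest share of Dppa5a UMIs in each library, 426 WT and 346 knockout cells, which is a range of a score and not a cell type. Their Dppa5a medians were 3978 and 3935 CPM per cell against 211 and 182 CPM in other cells, and 123 and 83 cells lay within 10% of the limits. The naive marker Zfp42 was at 16.5 CPM in other and 103 CPM in Dppa5a-high WT cells and at 24.7 and 194 CPM in knockout cells, and the 2-cell-like markers Zscan4c and Zscan4d were at 1.57 CPM or less in all 4 groups.

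Rpl39l and Rpl10l were the 2 members higher by 1.5-fold in Dppa5a-high cells of each library, where 4.25% of 8141 WT genes and 6.51% of 8789 knockout genes were. Both were under 5 CPM in other cells and entered the count through the Dppa5a-high cells alone, so the values and not the count describe them. Rpl39l was at 4.48 CPM in other and 44.5 CPM in Dppa5a-high WT cells (9.94-fold, 8.85 to 11.1; 456 UMIs in the latter) and at 3.22 and 44.4 CPM in knockout cells (13.8-fold, 12.04 to 15.80; 393 UMIs). Rpl10l was at 4.39 and 14.5 CPM in WT (3.29-fold, 2.74 to 3.92) and at 4.14 and 14.2 CPM in knockout cells (3.44-fold, 2.82 to 4.17). Their X-linked parents were nearly level: Rpl39 was at 4474 and 4453 CPM in WT and 5074 and 5316 CPM in knockout cells. Rpl10 was at 2721 and 2636 CPM and at 2919 and 2751 CPM. Of the UMIs of Rpl39 and Rpl39l together, Rpl39l gave 0.990% in Dppa5a-high and 0.100% in other WT cells, so the proportion to the parent was not constant. Rpl3l, below the level at which members were counted, was at 0.277 and 1.56 CPM in WT (53 and 16 UMIs) and at 0.202 and 1.24 CPM in knockout cells (30 and 11 UMIs). Across the ranking by Dppa5a share, from the lowest 50% through the next 30% and 15% to the top 5%, Rpl39l went from 2.06 through 4.56 and 11.7 to 44.5 CPM in WT and from 1.56 through 3.85 and 7.24 to 44.4 CPM in knockout cells. Rpl10l went from 3.03 through 4.88 and 7.58 to 14.5 CPM and from 2.51 through 5.11 and 7.37 to 14.2 CPM.

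**Figure D5:**
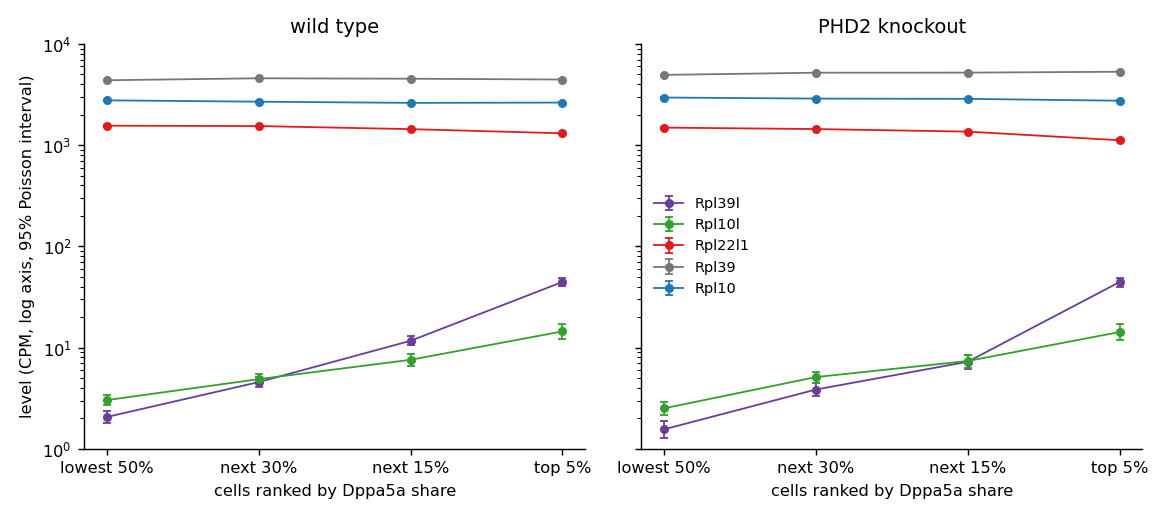
Level (CPM, log axis, bars are 95% Poisson intervals) of Rpl39l, Rpl10l and Rpl22l1 with the parents Rpl39 and Rpl10 in cells ranked by their share of Dppa5a UMIs, WT left and knockout right. Rpl39l and Rpl10l are higher in each step toward the top 5%, Rpl22l1 is lower there, and the parents stay near their level.

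Counted by cell at 1 depth, 25.5% of Dppa5a-high WT cells had an Rpl39l UMI (21.2 to 30.2%, exact binomial) against 4.46% of other WT cells, and 28.6% of Dppa5a-high knockout cells (23.8 to 33.9%) against 3.05%. Unthinned, the shares were 33.6% and 6.52% in WT at median depths of 21080 and 20390.5 UMIs, and 35.3% and 4.24% in knockout cells at 24222 and 20882 UMIs. By T state 9.62% of T-zero, 4.04% of T-low and 2.27% of T-high knockout cells had one, all thinned (11.8%, 5.74% and 3.53% unthinned). No class of cells known to lack Rpl39l was defined, and the lowest of these shares was 2.27%; the part of free RNA was not tested. For Rpl10l the thinned shares were 15.9% and 5.46% in WT and 18.5% and 5.32% in knockout cells (23.9%, 9.04%, 27.5% and 8.08% unthinned).

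The other members differed little. The member share was 37.5% in Dppa5a-high against 37.0% in other WT cells, and 35.8% against 36.3% in knockout cells, opposite in sign in the 2 libraries, and the medians of the log2 ratios were 0.02 (57 above and 29 below zero) and −0.01 (37 and 49). For all genes they were −0.03 and −0.05. No member was lower by 1.5-fold, where 5.33% and 11.2% of genes were. Rpl22l1 was the lowest in each library, at 1535 CPM in other and 1310 CPM in Dppa5a-high WT cells (1.17-fold lower) and at 1455 and 1119 CPM in knockout cells (1.30-fold lower). Its parent Rpl22 was at 2889 and 3059 CPM and at 2679 and 2822 CPM. After it came Rpl41 (8130 and 7398 CPM in WT, 7496 and 6633 CPM in knockout cells) and Rps2 (6435 and 5907 CPM, 6761 and 6041 CPM), then Rps27l (2681 and 2511 CPM) and Rps19bp1 (170 and 161 CPM) in WT and Rps20 (11893 and 10624 CPM) and Rpl29 (163 and 148 CPM) in knockout cells. On the high side followed Rpl6l (9.51 and 11.6 CPM), Rpl8 (6804 and 7545 CPM) and Rpl30 (5320 and 5750 CPM) in WT, and Rps25 (1243 and 1357 CPM), Rpl13 (11292 and 12178 CPM) and Rps6 (2688 and 2891 CPM) in knockout cells. Cells with a low chromosome 8 share, in which Rpl13 was lower, were 20.8% of Dppa5a-high and 45.4% of other knockout cells, and the part of this in the Rpl13 value was not tested. Size factors put the members' medians at 0.05 (70 above and 16 below zero) and 0.04 (62 and 24), so the sign in knockout cells turned.

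The fourth comparison set the libraries against each other within cells of the same class, which were not alike in other respects. The mesoderm gene Mesp1 was at 203 CPM in T-zero knockout cells and 0.397 CPM over all WT cells, and the primitive streak gene Mixl1 at 45.5 and 0.947 CPM. In Dppa5a-high cells, T was at 2.34 CPM in WT and 92.0 CPM in knockout cells and the naive marker Klf2 at 64.4 and 135 CPM. A high proximal X share was held by 5.43% of WT and 34.8% of knockout T-zero cells, and by 6.34% and 45.1% of Dppa5a-high cells. The part of these differences in the ratios was not tested. Within T-zero cells the median log2 ratio, knockout over WT, was −0.02, and Rpl39l was the only member past 1.5-fold, at 6.43 CPM in WT and 12.9 CPM in knockout cells (2.01-fold, 1.71 to 2.36; 12.7% of 8491 genes were higher by that size and 1.91% lower). Dppa5a-high cells were 5.17% of the WT and 13.9% of the knockout T-zero cells. Next were Rpl10l at 4.74 and 6.68 CPM, Rpl39 at 4433 and 5079 CPM (over all cells lower in the knockout within each class of proximal X share), Rps12 at 3560 and 3997 CPM and Rpl3 at 3456 and 3857 CPM. Among the lowest were Rps15 at 1814 and 1451 CPM, Rpl36al at 1760 and 1463 CPM, Rpl36 at 5762 and 4921 CPM and Rpl31 at 1752 and 1502 CPM. Within Dppa5a-high cells the member share was 37.5% in WT and 35.8% in knockout cells and the median log2 ratio was −0.07. No member passed 1.5-fold there (9.71% of 8394 genes were higher and 1.60% lower), and Rpl39l was at 44.5 and 44.4 CPM. Rpl39 was the highest, at 4453 and 5316 CPM. Over all cells it was lower in the knockout within each class of proximal X share. Next came Rpl7l1 (137 and 157 CPM), Rps12 (3617 and 4111 CPM), Rpl12 (3197 and 3430 CPM) and Rpl23a (645 and 691 CPM). Among the lowest were Rpl29 (176 and 148 CPM), Rpl6l (11.6 and 9.61 CPM), Rps19bp1 (161 and 137 CPM) and Rpl22l1 (1310 and 1119 CPM). Within the 2 classes of proximal X share the medians were −0.03 and −0.04, with 0 members past 1.5-fold in low-share cells (13.3% of 8556 genes higher, 2.55% lower) and 1 in high-share cells, Rpl39l, at 8.81 and 4.55 CPM (1.94-fold lower, at 5 CPM or more in WT cells alone; 10.9% of 8485 genes higher, 2.44% lower). The classes of chromosome 8 share compared here left out cells of a high chromosome 11 share. Within low and high chromosome 8 share the medians were 0.01 and −0.04, with no member past 1.5-fold. In the low share 10.8% of 8615 genes were higher and 4.09% lower, and in the high share 11.1% of 8466 higher and 2.11% lower.

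Set against their parents, the paralogues other than Rpl36al, Rpl39l, Rpl10l and Rpl3l held nearly the same proportion in both libraries. Rpl22l1 gave 34.5% of Rpl22 plus Rpl22l1 UMIs in WT and 34.8% in knockout cells, and 29.98% and 28.39% in Dppa5a-high cells. Rps27l gave 47.7% and 47.8% of its pair, Rpl7l1 3.25% and 3.34%, Rps27rt 1.67% and 1.73% and Rpl6l 0.272% and 0.270%. In percentage points Rpl36al differed most, at 44.3% in WT and 37.7% in knockout cells, with Rpl36al lower and X-linked Rpl36a higher (the latter lower with size factors). Rpl39l gave 0.145% and 0.109% over all cells and Rpl10l 0.180% and 0.162%.

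Other genes of ribosome production and translation were read from lists. Between knockout and WT cells 11.7% of all genes were higher by 1.5-fold and 2.35% lower, the background for each list. Of 28 translation initiation factors 0 were past that size, with Eif1, which helps choose the start codon, at 2509 and 2295 CPM, Eif1ax at 590 and 470 CPM and Eif4g1 at 106 and 139 CPM. Of 6 measured elongation genes 0 passed, with Eef1a1, which delivers aminoacyl-tRNA, at 4760 and 5797 CPM and Eef2, the translocase, at 531 and 682 CPM. Fau, which encodes a ribosomal protein fused to a ubiquitin-like protein, was at 4650 and 4370 CPM. Of 31 nucleolar assembly factors 0 were past 1.5-fold and 8 were lower by 1.2-fold (9.37% of all genes were), with a median of −0.13. Of the 207 genes at 500 CPM or more that are not members, 27.1% were lower by 1.2-fold, with a median of −0.11. That set does not match the list by level, since Nip7 and Ebna1bp2 lay under 500 CPM. Nip7 was at 238 and 171 CPM, Ebna1bp2 at 371 and 282 CPM and the histone chaperone Npm1 at 7534 and 7191 CPM. Of 17 RNA polymerase I genes 1 was lower by 1.5-fold, the shared subunit Polr2l, at 279 and 176 CPM. Among 17 measured regulators of TOP translation and mTORC1, 1 was higher, Ddit4, an mTORC1 inhibitor, at 17.1 and 51.3 CPM, and 2 were lower: Eif4ebp1, an mTORC1 target that holds back cap-dependent initiation, at 1499 and 905 CPM, and Myc at 11.6 and 7.52 CPM. Of 9 ribosome quality control genes 0 passed.

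Between T-high and T-zero knockout cells and between Dppa5a-high and other cells of each library, the initiation, elongation and quality control lists had 0 genes past 1.5-fold. In Dppa5a-high knockout cells 9 of the 31 nucleolar factors were higher by 1.2-fold (16.7% of all genes were) and the median was 0.19, with Rrp9 at 42.2 and 60.8 CPM and Nip7 at 168 and 223 CPM. In WT cells that median was −0.01. The RNA polymerase I list had 1 gene past 1.5-fold in Dppa5a-high knockout cells, the initiation factor Rrn3, at 27.8 and 41.8 CPM (6.51% of all genes were higher by that size). Mycn, a driver of ribosome production in stem cells, was at 16.8 and 37.5 CPM in WT and at 16.1 and 43.9 CPM in knockout cells, and Myc at 11.9 and 6.74 CPM in WT. Between T-zero and T-high knockout cells, Mycn was at 20.4 and 13.6 CPM and the snoRNA host Snhg12 at 83.1 and 54.6 CPM, and the median log2 ratio was −0.10 for nucleolar factors, −0.09 for RNA polymerase I and −0.03 for initiation factors.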

How the data were processed

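Per the labels, the samples were 1 wild type and 1 PHD2 knockout library. The authors deposited raw UMI counts per gene and barcode; the file headers give Cell Ranger 4.0.0, and mm10 and Seurat come from the submitters' processing notes. No source used here states read end or strand.

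Cells with at least 1000 genes and at most 10% mitochondrial UMIs were kept. Scrublet (scanpy 1.11.5) made 0 automatic calls in each library, so cells were removed from the top of its doublet score, up to 0.8% per 1000 barcodes (713 and 456 cells). UMIs were summed per library or group of cells and scaled to CPM (Python 3.11.15, numpy 2.4.6, scipy 1.17.1, pandas 2.3.3). UMI CPM were not divided by transcript length. Log2 ratios used a pseudocount of 1 CPM, which understates changes of low genes; folds have exact conditional binomial intervals and levels exact Poisson intervals, both at 95% and for counting error only. Genes reaching 5 CPM in either group counted as measured. T states and shares of cells with a UMI used cells thinned to 14000 UMIs, which left out 773 WT and 644 knockout cells. Chromosome shares used UMIs of genes that are neither members nor mitochondrially encoded, with limits set after the distributions were seen. Comparisons made within a class of chromosome 8 share left out cells of a high chromosome 11 share. Start windows on chromosome 18 were not used. Coordinates are GENCODE M21 (27722 of 27998 genes matched). The ratio scripts were tested on simulated data.

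Named were the 10 most abundant members, the 5 highest and 5 lowest ratios in each main comparison, paralogues with parents, stalk and 5S genes, members on chromosomes 8 and 11, and of each list the most abundant gene and up to 2 from each end; other genes were named after their values were seen. Some genes that this rule takes are not reported here. The members, lists and rule were chosen with earlier results of these data known. Alternatives were other limits on cells, scalings, pseudocounts, thinning depths and group limits.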

Additional observations from a re-analysis of the deposited data

Results flagged for a closer look

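The share of UMIs from ribosomal protein genes differed in opposite directions between libraries or classes in 3 contrasts, and none of these differences was tested, with 1 library per group. From other to Dppa5a-high cells it was 0.474 percentage points higher in WT and −0.527 points different, that is lower, in knockout cells. From T-zero to T-low cells the difference was −0.902 points in WT and 0.108 points in knockout cells. Between knockout and WT cells the difference was 0.607 points among cells with a low chromosome 8 share and −0.454 points among cells with a high one. Both values leave out cells of a high chromosome 11 share. With those cells kept, the member share was 35.7% in knockout and 35.3% in WT low-share cells, and 36.8% and 37.3% in high-share cells.

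Outside the members, 14 of the 16 genes with -ps in the symbol had more than 3 UMIs in a library. They summed to 246 CPM in WT and 254 CPM in knockout cells. Whether these UMIs come from the genes themselves or from their parents was not tested. Among the 10 at 5 CPM or more, the ratio of knockout to WT ran from 0.837 for Rpl36-ps3 to 1.14 for Rps12-ps3.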

How the results depend on the processing

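No paired analysis was possible because each group is 1 library with no replicate number. With 1 library per group the intervals hold no spread between cultures, and low paralogues rest on few UMIs. Rpl39l stayed above zero in Dppa5a-high cells in 9 of 9 alternatives in each library (log2 1.91 to 3.16 in WT, 2.04 to 3.54 in knockout cells) and below zero from T-zero to T-high in 12 of 12 (−2.36 to −0.90). For Rpl10l the latter turned to 0.092 within low chromosome 8 share, from 17 and 48 UMIs. This alternative, and the others within a chromosome 8 share, left out cells of a high chromosome 11 share. Size factors, which centre the median gene, moved the members' median log2 ratio to −0.20 for knockout over WT, −0.033 for T-high over T-zero, 0.053 and 0.041 for Dppa5a-high cells of WT and knockout, −0.19 within T-zero and −0.21 within Dppa5a-high cells. Within low chromosome 8 share the knockout over WT median was 0.0084, and within high chromosome 8 share the T-high median was 0.0013. The log2 ratio of the members' share, knockout over WT, was −0.028, and −0.027 without limits on cells, −0.029 with stricter limits on genes and mitochondrial share, −0.027 without doublet removal, −0.039 over the total without members, −0.018 with cells weighted equally, 0.025 and −0.018 within low and high chromosome 8 share, and −0.033 and −0.031 within low and high proximal X share. In the last class 1 member passed 1.5-fold. For T-high over T-zero it was −0.0076, and −0.017 at 10 or more T UMIs, −0.0024 with cells thinned to fewer UMIs, −0.017 and 0.0079 within low and high chromosome 8 share and −0.013 without Dppa5a-high cells. Apart from the centring by size factors, the cause was not tested.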
